A study of Mus musculus with 6 samples.

Results

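Transcripts of 10 cathepsins were followed in mouse chondrocytes, picked by gene name from a table of 28812 genes measured by RNA sequencing. They are the 8 cysteine proteases Ctsb, Ctsc, Ctsf, Ctsh, Ctsk, Ctsl, Ctss and Ctsz, the aspartic protease Ctsd and the serine protease Ctsa. All 10 passed the filter on low counts, which left 17290 genes for testing.

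Cathepsins are the proteases of lysosomes and late endosomes, where they take apart proteins that arrive by endocytosis, phagocytosis and autophagy. Most are papain-like cysteine proteases, cathepsin D is an aspartic protease, and cathepsin A is a serine carboxypeptidase. They are made as inactive precursors, are carried to the lysosome largely by mannose 6-phosphate receptors, and are cleaved to active enzymes in its acid interior. Cystatins and some serpins inhibit those that escape. In cartilage and bone, cathepsins B, K, L and S are known for degrading collagens, aggrecan and elastin outside the cell.

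The cells were wild-type mouse chondrocytes, the cells of cartilage, which the labels assign an osteoarthritic (OA) disease state. All 6 libraries came from cells given interleukin-1 beta (IL-1β), an inflammatory cytokine used to provoke an osteoarthritis-like state. In 3 libraries IL-1β was combined with a vehicle and in the other 3 with transplanted mitochondria, which the series title traces to osteocytes, the cells embedded in bone. No library without IL-1β was analysed here, so the values say nothing of what IL-1β itself did. The labels give neither the age of the animals nor the passage of the cells, and do not say whether replicates were separate animals or cultures. P-values therefore measure the spread between these libraries, which may be technical.

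Libraries held 63547854 to 66293786 deposited counts, which seem to hold about 4 counts to a sequenced fragment. Along the first principal component, which carried 64.9% of the variance, vehicle replicates lay at -18.6, -34.04 and -34.28, and mitochondria replicates at 49.48, 16.65 and 20.79, so that replicate 1 stood apart from its group on both sides. Chondrocyte markers were present, with a summed FPKM (fragments divided by transcript length and library size) of 226 to 267 with vehicle and 188 to 220 with mitochondria. Of these 14 markers, 2 were higher and 3 lower in edgeR, beside 6.36% and 8.46% of all genes tested. Much of the sum was Col2a1, at 105 to 123 FPKM with vehicle and 88.1 to 111 with mitochondria. Acan was at 1.61 to 2.04 and 2.30 to 2.90 FPKM. Col1a1, of type I collagen, stood above Col2a1, at 717 to 838 and 687 to 831 FPKM. How far the cells had kept a chondrocyte state was not tested. Synovial fibroblast markers summed to 379 to 430 and 288 to 313, with 5 of 9 lower. Macrophage markers summed to 42.6 to 53.3 and 40.9 to 49.8; Cx3cr1, Cd163 and Aif1 of the 13 were at or near 0 in all 6 libraries, and of the 10 tested 0 passed in edgeR, with 3 at an unadjusted p under 0.05. Osteocyte markers summed to 78.8 to 119 and 120 to 131, nearly all of it Pdpn, while Dmp1 and Sost, which define osteocytes, were at or near 0 in all 6 libraries. Lymphocyte and mast cell markers summed to at most 0.153 in any library. In bulk RNA, fewer cells of a type and less RNA per cell cannot be told apart.

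The cysteine cathepsins share the stretch around the catalytic cysteine, which sets them apart from Ctsd and Ctsa and is where reads from one might resemble another. It is shown for 7 of the 8 as 30 coding bases from the GENCODE M21 transcripts (build GRCm38), 5′ to 3′ on the coding strand, with the codon of the catalytic cysteine in capitals.
Ctsk: cagtgtggttccTGTtgggctttcagctct
Ctsl: cagtgcgggtctTGTtgggcgtttagcgca
Ctss: tcttgtggtgccTGCtgggctttcagtgct
Ctsb: tcctgcggctctTGTtgggcatttggggca
Ctsz: tactgtggttccTGCtgggcccacggcagc
Ctsh: gcctgtggcagcTGCtggactttctctacc
Ctsc: tcttgtggaagcTGCtactcatttgcctct
Against the Ctsk stretch, Ctsl and Ctss were identical at 23 of 30 bases, Ctsz at 20, Ctsb at 18, Ctsh at 17 and Ctsc at 16. The codon was TGT in Ctsk, Ctsl and Ctsb and TGC in Ctss, Ctsz, Ctsh and Ctsc. The stretch lies within 1 exon in each of these genes but Ctsb, where an intron splits it. In Ctsk it is 3:95502585-95502614 in exon 5, and in Ctsh 9:90064510-90064539 in exon 6. Over whole transcripts, the longest run of identical bases shared by any pair of the 10 genes was 18 bases, between Ctsf and Ctsh, followed by 17 for Ctsk with Ctsl and Ctsk with Ctss. Read and fragment lengths are not reported here. Only coding transcripts of these 10 genes were compared, so reads shared with other genes or pseudogenes were not examined.

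The genes lie on 7 chromosomes, and the coordinates are GRCm38. Ctsk (3:95499256-95509362, plus strand, 8 exons) and Ctss (3:95526786-95556403, plus strand, 8 exons) are neighbours, 17423 bp apart with 0 genes between them. Ctsh lies at 9:90054152-90076089 on the plus strand with 12 exons, Ctsd at 7:142375911-142388038 on the minus strand, Ctsl at 13:64359337-64370890 on the minus strand and Ctsz at 2:174427493-174439039 on the minus strand. Ctsf, Ctsh and Ctsk overlap no other annotated gene. The other 7 do, and without stated strand information the reads of overlapping exons cannot be told apart. Ctsb shares ground with Fdft1 on the opposite strand, which was at 41.3, 59.1 and 58.5 CPM (counts scaled to library size by the TMM method) with vehicle and 23.7, 21.8 and 21.2 with mitochondria. Ctsa overlaps Pltp, at 13.6 to 20.4 CPM, and Ctsz overlaps Nelfcd, at 26.1 to 39.95 CPM. On its own strand Ctsd overlaps Gm49369, which is annotated as protein-coding. Ctsl and Ctss overlap the processed pseudogenes Gm49230 and Hmgb1-ps5, also on the same strand. Strand information would not tell the reads of such overlaps apart.

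By level per transcript length, cathepsin D dominated the family in these chondrocytes. Ctsd averaged 609 FPKM over the 6 libraries, which ranked it 63 of the 17290 genes tested. Ctsb followed at 133 FPKM, Ctsz at 108, Ctsa at 81.1 and Ctsl at 76.0. A lower tier held Ctsk at 35.3 FPKM, Ctsh at 30.9 and Ctsf at 15.3. Ctss, known for cutting the invariant chain in antigen-presenting cells, reached 1.25 FPKM, and Ctsc, the dipeptidyl peptidase that activates granule proteases of immune cells, 0.801 FPKM. The ranges over libraries overlapped between neighbours in this order for Ctsb with Ctsz, Ctsa with Ctsl, and Ctsk with Ctsh. Ctsb was above Ctsz in 5 of 6 libraries and Ctsa above Ctsl in 5 of 6. Ctsk was above Ctsh in 3 of 6, namely the vehicle libraries, so this pair changed places between the groups.

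**Figure D1:**
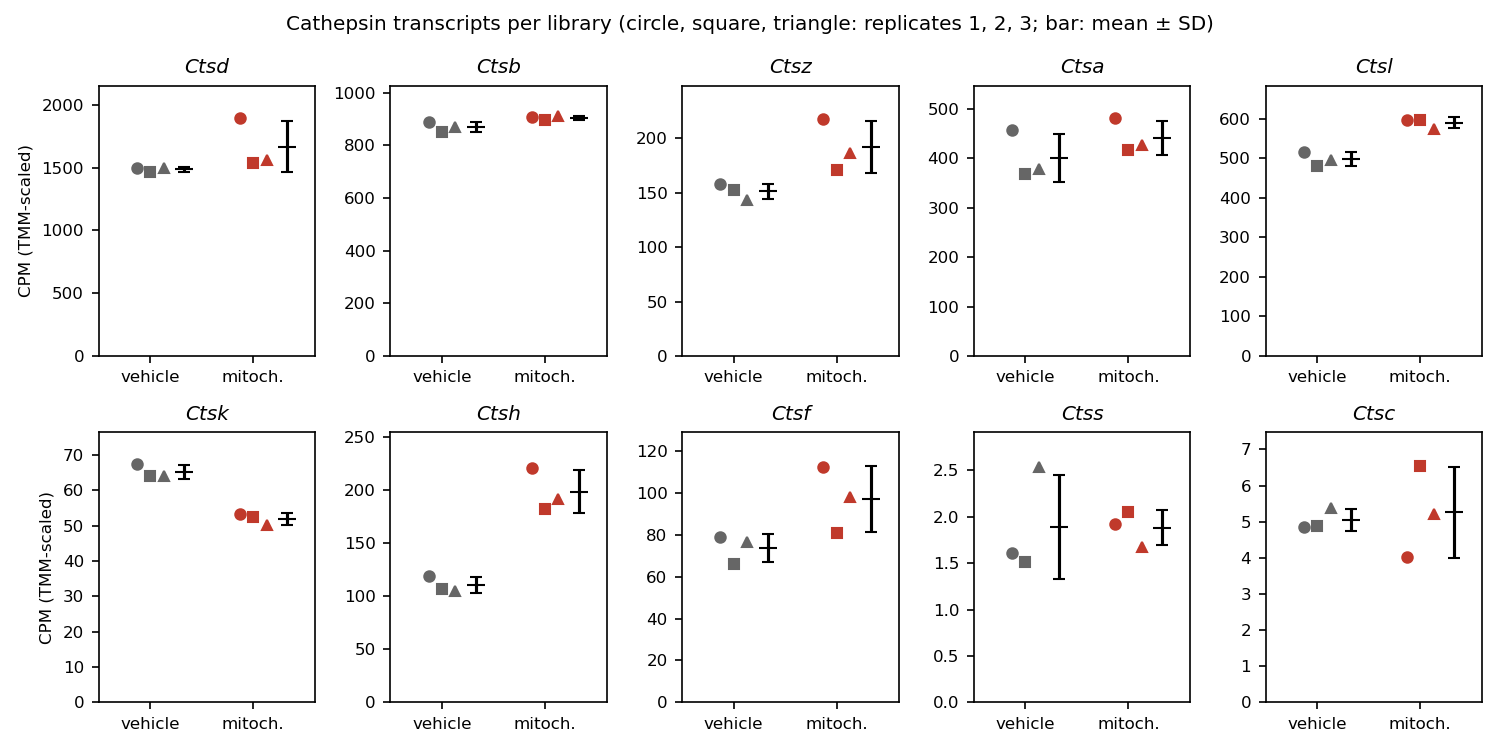
TMM-scaled CPM of each of the 10 cathepsins in each library, vehicle in grey and mitochondria in red, ordered by FPKM; circle, square and triangle are replicates 1, 2 and 3, and the bar is the mean with SD (n = 3). Ctsh separates upward (105 to 119 against 182 to 221 CPM) and Ctsk downward (64.0 to 67.3 against 50.0 to 53.3 CPM), each axis starting at 0.

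Of the 10 cathepsins, 1 rose with mitochondria (Ctsh), 1 fell (Ctsk) and 8 did not pass an edgeR quasi-likelihood adjusted p of 0.05. Over all genes tested the background was 14.8% called, 6.36% higher and 8.46% lower, so 2 of 10 is close to the rate at which any gene was called. The median log2 fold change of the 10 was 0.15 (0.08 to 0.21 over the 19 alternatives), against 0.00 over all genes, and 8 of the 10 estimates were above 0. At an unadjusted p under 0.05 there were 5 (Ctsh, Ctsk, Ctsl, Ctsz and Ctsf), where 31.5% of all genes stood. In CPM the groups did not overlap for 7 cathepsins, 6 higher and 1 lower, beside a background of 40.7% (19.8% higher and 20.9% lower). In FPKM they did not overlap for 4 (Ctsh, Ctsk, Ctsl and Ctsz), beside a background of 40.1%.

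Ctsh encodes cathepsin H, a cysteine protease that acts mainly as an aminopeptidase and is known for processing surfactant protein in the lung. Its level was 119, 106 and 105 CPM in the vehicle libraries and 221, 182 and 192 CPM in the mitochondria libraries. All 3 mitochondria libraries lay above all 3 vehicle libraries, and replicate 1 was the highest of each group. The mean rose from 110 ± 7.67 to 198 ± 20.1 CPM (SD, n = 3 each), a log2 fold change of 0.85 ± 0.10 (SE; 95% interval 0.61 to 1.08), or 1.80-fold, with an edgeR adjusted p of 0.0042. In FPKM the means were 22.8 ± 1.31 and 39.1 ± 3.98 (SD, n = 3 each). By p-value Ctsh ranked 92 of 17290 genes. Macrophages also make cathepsin H, and their summed markers, given above, are mostly Lyz2 (log2 fold change -0.41). Of the 10 macrophage markers tested, 6 had estimates above 0 and 4 below 0, the lowest at -1.73. Cd14 (0.43), Cd68 (0.54), Adgre1 (0.95) and Itgam (0.997) were among the 6, with edgeR adjusted p of 0.056, 0.17, 0.17 and 0.17. In CPM the groups did not overlap for 1 macrophage marker higher and 2 lower, beside 19.8% and 20.9% of all genes tested. The part of these markers in the result was not tested. Ctsh passed in each of the 19 other settings tried, with log2 fold changes from 0.71 to 0.91. Its adjusted p ran from 3.4e-10 (DESeq2) to 0.041 (limma with no filter on low values).

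The genes whose profile over the 6 libraries was most like that of Ctsh were Pitpnm1, Ubtd1 and Bsg, out of 9287 others with a mean of at least 10 CPM. Likeness is the root mean square distance between log2 CPM profiles, each centred on its own mean. That distance was 0.0299 for Pitpnm1, 0.0421 for Ubtd1 and 0.0460 for Bsg (basigin, a membrane glycoprotein). Since the profile of Ctsh separates the groups, a gene near it separates them too. The nearest cathepsin, Ctsf, was much farther away, at 0.248.

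Ctsk encodes cathepsin K, the collagenase of osteoclasts, which is also made by chondrocytes and cuts type I and II collagen and aggrecan. It was at 67.3, 64.1 and 64.0 CPM with vehicle and at 53.3, 52.4 and 50.0 CPM with mitochondria. The groups did not overlap, and within each the libraries lay close together. The mean fell from 65.1 ± 1.87 to 51.9 ± 1.68 CPM (SD, n = 3 each), a log2 fold change of -0.33 ± 0.09 (SE; 95% interval -0.53 to -0.13), or 0.797-fold, with an edgeR adjusted p of 0.040. In FPKM it fell from 40.1 ± 0.684 to 30.5 ± 0.843 (SD, n = 3 each). The estimate stayed below 0 in all 19 other settings, between -0.44 and -0.27, but passed in 10 of them. The 9 that missed the threshold included the fits without vehicle replicate 1, 2 or 3 (edgeR adjusted p = 0.098, 0.13 and 0.14). Leaving out mitochondria replicate 2 or 3 gave 0.074 and 0.14. No filter on low counts gave 0.056 and upper-quartile scaling 0.087. A replicate block gave 0.076, and 0.063 together with GC offsets.

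Ctsk is also a defining gene of osteoclasts, so the other markers of that cell type are given beside it; their part in the result was not tested. Their summed FPKM, in a list that does not hold Ctsk, was 5.20 to 6.48 with vehicle and 9.73 to 12.9 with mitochondria. Mmp9 alone was at 2.15 to 2.52 FPKM and 5.59 to 7.84 FPKM. Of the 6 tested, Mmp9 (log2 fold change 1.64, edgeR adjusted p = 0.0031) and Itgb3 (1.17, adjusted p = 0.020) were higher. Over all genes tested, 6.36% were higher. Itgb3 lost its call when vehicle replicate 2 (0.090) or 3 (0.081), or mitochondria replicate 3 (0.055), was left out. The estimates of 3 others were below 0 and did not pass: Oscar with -1.50 (edgeR adjusted p = 0.22), Tnfrsf11a with -1.51 (0.55) and Car2 with -0.55 (0.15). Calcr, Ocstamp and Atp6v0d2, which define the mature osteoclast, were at or near 0 FPKM in all 6 libraries. Acp5, the osteoclast acid phosphatase, was at most 1.81 FPKM, and its estimate was above 0 but did not pass. Thus 3 of the 6 estimates were above 0 and 3 below 0, with a median log2 fold change of 0.17.

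Of the cysteine cathepsins that did not pass, Ctsl, Ctsz and Ctsf had estimates above 0 whose 95% intervals did not reach 0, but their adjusted p fell short. Ctsl encodes cathepsin L, an endopeptidase that cuts collagen and elastin. It was at 516, 480 and 496 CPM with vehicle and 597, 598 and 573 CPM with mitochondria, so the groups did not overlap. The log2 fold change was 0.24 ± 0.07 (SE; 95% interval 0.08 to 0.41), with an edgeR adjusted p of 0.059. It passed in 5 of the 19 other settings, among them without mitochondria replicate 1 (0.038), with upper-quartile scaling (0.037) and with offsets for the GC content of transcripts (0.016). With those offsets Ctsh and Ctsl were the higher cathepsins, beside 9.81% of all genes higher, and Ctsk the lower one, beside 9.43% of all genes lower.

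Ctsz encodes cathepsin Z, also called X, a carboxypeptidase that removes single residues. It was at 158, 153 and 144 CPM with vehicle and 218, 171 and 186 CPM with mitochondria, the groups not overlapping and mitochondria replicate 1 well above the others. The log2 fold change was 0.34 ± 0.11 (SE; 95% interval 0.10 to 0.58; edgeR adjusted p = 0.062). Its transcript has the highest GC content of the 10, at 57.32% against a median of 50.6% over genes tested, and with GC offsets the estimate was 0.18 (adjusted p = 0.11). It passed in 5 of the 19 other settings, among them without mitochondria replicate 2 (0.043) and with DESeq2 (0.032).

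Ctsf encodes cathepsin F, a papain-like enzyme with a long propeptide that holds a cystatin-like domain. It was at 78.6, 66.2 and 76.6 CPM with vehicle and 112, 80.6 and 97.9 CPM with mitochondria. The groups did not overlap in CPM, by a small margin, and did overlap in FPKM (12.3 to 14.3 against 14.1 to 19.7). The log2 fold change was 0.39 ± 0.13 (SE; 95% interval 0.09 to 0.70; edgeR adjusted p = 0.083), and 0.25 with GC offsets. It passed in 2 of the 19 other settings, without mitochondria replicate 2 (0.036) and with DESeq2 (0.040).

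Ctsb, Ctsd and Ctsa, among the 4 most abundant cathepsins, had 95% intervals that included 0. Ctsb encodes cathepsin B, which cuts both within proteins and as a dipeptidyl carboxypeptidase, and its libraries ran from 849 to 890 CPM with vehicle and 897 to 912 CPM with mitochondria. The log2 fold change was 0.06 ± 0.07 (SE; 95% interval -0.10 to 0.21; edgeR adjusted p = 0.62). In FPKM the Ctsb groups overlapped, at 132 to 135 and 131 to 135.

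Ctsd was at 1498, 1464 and 1497 CPM with vehicle and 1898, 1540 and 1564 CPM with mitochondria. The high value of mitochondria replicate 1 carried most of its estimate of 0.17 ± 0.09 (SE; 95% interval -0.05 to 0.38; edgeR adjusted p = 0.26), which was 0.06 without that library. Ctsa, whose protein protects lysosomal β-galactosidase and neuraminidase, was at 457, 368 and 379 CPM with vehicle and 482, 417 and 428 CPM with mitochondria. Replicate 1 was the highest of both groups, and the groups overlapped. The Ctsa estimate was 0.14 ± 0.11 (SE; 95% interval -0.11 to 0.38; edgeR adjusted p = 0.42).

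Ctsc and Ctss were low, and their intervals wide. If 4 counts are taken as 1 fragment, Ctsc rested on 65 to 102 fragments per library and Ctss on 26 to 42. Ctsc was at 4.87, 4.88 and 5.39 CPM with vehicle and 4.02, 6.54 and 5.23 CPM with mitochondria, with a 95% interval of the log2 fold change from -0.43 to 0.55. Ctss was at 1.61, 1.52 and 2.54 CPM with vehicle and 1.92, 2.05 and 1.67 CPM with mitochondria, with an interval from -0.69 to 0.68. In both, the groups overlapped fully.

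**Figure D2:**
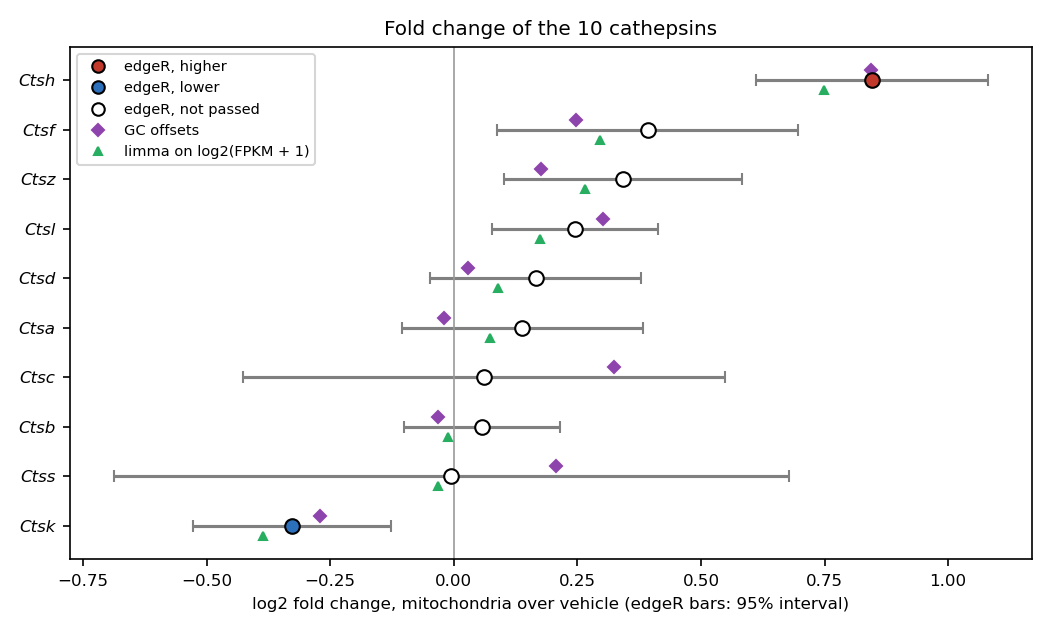
Log2 fold change of each cathepsin, mitochondria over vehicle, from edgeR with its 95% interval (circles; red higher, blue lower, white not passed), beside the estimates with GC offsets (diamonds) and from limma on log2(FPKM + 1) (triangles; Ctsc was below its filter). Ctsh at 0.85 lies apart from the other 9, which run from -0.33 to 0.39, and the GC offsets move Ctsz, Ctsf and Ctsd toward 0.

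The make-up of the cathepsin transcript pool differed between the groups in several of its parts. Vehicle libraries had a summed FPKM over the 10 genes of 1049 ± 13.8 and mitochondria libraries of 1132 ± 104 (SD, n = 3 each). The latter were at 1250, 1056 and 1091, so replicate 1 set the wider spread. Ctsd made up 56.1% ± 0.977 of the vehicle sum and 55.5% ± 1.52 of the mitochondria sum (SD, n = 3 each). The Ctsh share went from 2.17% ± 0.101 to 3.45% ± 0.0557 and the Ctsk share from 3.82% ± 0.0365 to 2.70% ± 0.200 (SD, n = 3 each), without overlap in either case. The larger shares of Ctsb and Ctsz did not overlap between the groups either. Ctsb took 12.7% to 12.8% with vehicle and 10.6%, 12.4% and 12.3% in mitochondria replicates 1, 2 and 3. Ctsz took 8.89% to 9.61% and 9.93% to 10.7%. A share also depends on the other genes of the sum. In FPKM itself Ctsb overlapped, at 132 to 135 with vehicle and 131 to 135 with mitochondria.

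The ratio of Ctsh to Ctsk in FPKM, a pair chosen after their values were seen, was 0.594, 0.558 and 0.552 with vehicle and 1.39, 1.17 and 1.29 with mitochondria. Ctsk was thus the more abundant of the pair in every vehicle library and Ctsh in every mitochondria library. As a share of all FPKM, the 10 cathepsins stood at 0.362% ± 0.00859 and 0.377% ± 0.0284 (SD, n = 3 each), a difference smaller than the spread in the mitochondria group.

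**Figure D3:**
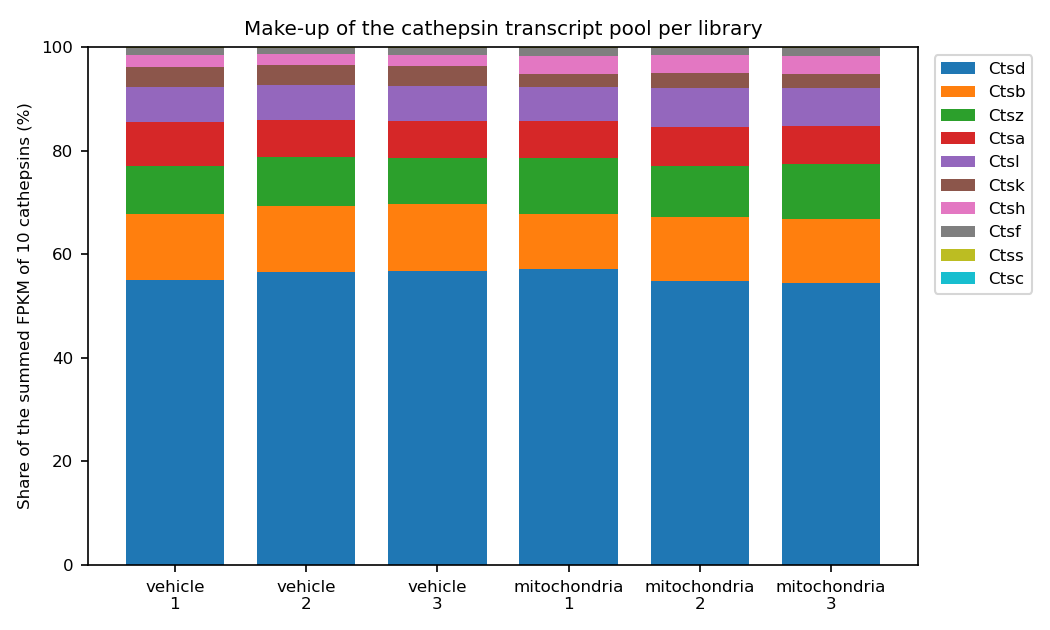
Share of each cathepsin in the summed FPKM of the 10, in percent, for each of the 6 libraries. Ctsd takes 54.5% to 57.2% of every library, while the Ctsh band is wider and the Ctsk band narrower in the 3 mitochondria libraries.

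Among themselves, the cathepsins fell into close pairs by profile over the 6 libraries. Ctsb and Ctsl were each other's nearest cathepsin (distance 0.0976), as were Ctsa and Ctsd (0.0984) and Ctsf and Ctsz (0.102). The nearest cathepsin was Ctsb for Ctsk (0.194), Ctsc (0.196) and Ctss (0.201), all at about the same larger distance. The members of a pair share libraries, depth and, for Ctsa and Ctsd, the high replicate 1, so the distances are a description. Ctss, the neighbour of Ctsk on the chromosome, was not its nearest by profile.

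Promoters (RefSeq, GRCm38.p6, 250 bases before to 50 after the start) were at hand as 9 windows for 8 of the cathepsins; Ctsb and Ctsh had no entry. They were searched on both strands for 5 motifs. The E-box core, bound by many basic helix-loop-helix factors, is CACGTG. It was found in 4 of the 9 windows (Ctsa, Ctsd, Ctsf and Ctsl), beside 7.15% of all 32851 promoters. The centre of the CLEAR element, which TFEB and TFE3 bind, is TCACGTGA and contains the E-box core. It was found in 2 windows (Ctsa and Ctsd), beside 0.974% of all promoters. A part of the interferon-stimulated response element, searched as GAAANNGAA, was found in Ctss alone and in 8.56% of all promoters. The letters of the TATA box, TATAAA, were likewise found in Ctss alone and in 13.6% of all promoters. In Ctss the match lay on the opposite strand, at -233 from the start. The AP-1 site is bound by Fos and Jun proteins and was searched as TGANTCA. It was found in 0 of the 9 windows and in 7.81% of all promoters. The Ctsk window, that of the only cathepsin with an entry that passed the test, held none of the 5 motifs.

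Shown are the matches to the CLEAR centre and to the part of the interferon-stimulated response element, chosen after the search was seen. Neither was found in the window of the abundant Ctsz or of the low Ctsc. The motif is in capitals, 5′ to 3′ on the gene's strand.
Ctsa, 2:164833760-164833767: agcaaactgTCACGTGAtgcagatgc
Ctsa, 2:164833777-164833784: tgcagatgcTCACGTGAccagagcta
Ctsd, 7:142387919-142387926: gcccgcgtcTCACGTGAcccgttgag
Ctss, 3:95526765-95526773: tctttaaatGAAACCGAAatgaaagtt
Ctsa and Ctsd, which hold the CLEAR centre, did not pass the test. They are among the close pairs by profile given above. The windows of Ctsl, Ctsf and Ctsz, members of the other close pairs, held no CLEAR centre, and Ctsb had no entry. Whether the motif bears on the profiles was not tested. A match of letters does not show that a factor binds there.

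Genes whose products regulate, sort, activate or inhibit cathepsins were read from lists of the pathway. For each list below, the share over all genes tested was 6.36% higher and 8.46% lower. Among 11 regulators of lysosomal gene transcription, edgeR called 0 higher and 1 lower, with a median log2 fold change of 0.08 (-0.02 to 0.16 over the 19 alternatives). DESeq2 called 1 higher. The lower one was Fnip1, a partner of folliculin in the complex that keeps TFEB and TFE3 out of the nucleus. Fnip1 was at 61.8, 64.2 and 60.7 CPM with vehicle and 15.3, 26.9 and 26.1 CPM with mitochondria, a log2 fold change of -1.45 ± 0.20 (SE; edgeR adjusted p = 0.0053). Tfe3, the most abundant, had 0.31 ± 0.10 (SE; edgeR adjusted p = 0.072) and Tfeb -0.04 ± 0.24 (SE; adjusted p = 0.93).

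Of 24 genes for the maturation and sorting of lysosomal enzymes, 1 was higher and 2 were lower (median 0.01; -0.07 to 0.11 over the 19 alternatives). M6pr, the cation-dependent mannose 6-phosphate receptor that carries cathepsins from the Golgi, rose from 193, 163 and 162 CPM to 256, 253 and 231 CPM, by 0.52 ± 0.10 (SE; edgeR adjusted p = 0.014). Gnptab, a subunit of the enzyme that makes the mannose 6-phosphate tag, fell by 0.54 ± 0.14 on the log2 scale (SE; edgeR adjusted p = 0.037). Tmem106b, a lysosomal membrane protein, fell by 0.82 ± 0.18 (SE; edgeR adjusted p = 0.021). With vehicle replicate 2 or 3 left out, the adjusted p was 0.081 or 0.083 for M6pr, 0.084 or 0.083 for Tmem106b, and 0.087 or 0.14 for Gnptab. Gnptab also missed the threshold when vehicle replicate 1 (0.086) or mitochondria replicate 3 (0.11) was omitted. Psap (prosaposin), the most abundant of the list, had 0.26 ± 0.09 (SE; adjusted p = 0.084). Lgmn, the legumain that cleaves several cathepsins into their chains, had 0.31 ± 0.11 (SE; adjusted p = 0.091) and was singled out after its value was seen.

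The 17 subunits of the vacuolar ATPase, the pump that acidifies lysosomes, gave 0 calls in edgeR (median 0.05; -0.02 to 0.12 over the 19 alternatives). DESeq2 called 1 higher and 1 lower. At an unadjusted p under 0.05 there were 4 of the 17, where 31.5% of all genes stood. The most abundant, Atp6ap1, had 0.15 ± 0.10 (SE; edgeR adjusted p = 0.35). Cathepsin A shields 2 other enzymes in a lysosomal complex. Of these, Glb1 (β-galactosidase) was higher, at 80.1, 73.4 and 76.5 CPM with vehicle and 99.9, 96.7 and 94.1 CPM with mitochondria (log2 fold change 0.34 ± 0.09 SE, edgeR adjusted p = 0.033). It passed in 1 of the 6 fits that left out a library; the adjusted p was 0.053, 0.16 and 0.14 with vehicle replicate 1, 2 and 3 omitted in turn, and 0.065 and 0.088 with mitochondria replicate 2 and 3 omitted. Neu1 (neuraminidase) had -0.11 ± 0.13 (SE; edgeR adjusted p = 0.61).

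Of the 13 tested of 20 listed cathepsin inhibitors, 2 were higher and 3 were lower, beside 6.36% and 8.46% of all genes tested. Their median of 0.24 ran from -0.12 to 0.30 over the 19 alternatives. With 1 library omitted it was 0.07 for vehicle replicate 1 or 3, 0.02 for mitochondria replicate 1 and 0.03 for mitochondria replicate 3. Cst6, the cystatin E/M that inhibits cathepsins L and B and legumain, was at 6.92, 6.02 and 5.76 CPM with vehicle and 17.4, 14.1 and 14.0 CPM with mitochondria, a log2 fold change of 1.28 ± 0.16 (SE; edgeR adjusted p = 0.0042). Stfa3, a stefin, was higher by 1.55 ± 0.29 (SE; edgeR adjusted p = 0.013). The lower ones were serpins: Serpina3g, which inhibits cathepsins in T cells, with -1.51 ± 0.23 (SE; edgeR adjusted p = 0.0068), Serpina3n with -0.70 ± 0.10 (SE; 0.0056) and Serpinb1a with -0.85 ± 0.18 (SE; 0.018). The list was not split by target, and which cathepsins Serpina3n and Serpinb1a inhibit was not tested. Their falls therefore do not show that the cathepsins followed here were less inhibited. Stfa3 and the Serpina3 genes belong to clusters of near-identical copies, so their counts are uncertain. Without vehicle replicate 2 or 3, Stfa3 (0.061 and 0.064) and Serpinb1a (0.084 and 0.085) did not pass.

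The most abundant inhibitor by FPKM was Cst3, cystatin C, the main secreted inhibitor of cysteine cathepsins. It was at 116, 124 and 123 FPKM with vehicle and 158, 123 and 126 FPKM with mitochondria, with mitochondria replicate 1 well above the other 5 libraries (log2 fold change 0.24 ± 0.11 SE, edgeR adjusted p = 0.18). Set against the summed cathepsins, Cst3 was 0.109 to 0.119 of that sum with vehicle and 0.116 to 0.126 with mitochondria. By CPM, the serpin Serpinb6a was the most abundant of the list, with 0.08 ± 0.08 (SE; edgeR adjusted p = 0.59). Whether Serpinb6a inhibits any of the cathepsins followed here was not tested.

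Among 12 extracellular proteins that cathepsins cut, 1 was higher and 2 were lower (median -0.01; -0.11 to 0.05 over the 19 alternatives). Acan (aggrecan) had 0.54 ± 0.15 (SE; edgeR adjusted p = 0.041), Eln (elastin) -1.21 ± 0.17 (SE; 0.0053) and Col1a2 -0.46 ± 0.09 (SE; 0.015). Eln passed without any 1 library. Acan passed in 0 of the 6 fits that left out a library, with adjusted p of 0.053, 0.16 and 0.13 for vehicle replicates 1, 2 and 3 omitted in turn and 0.068, 0.075 and 0.060 for the mitochondria replicates. Col1a2 missed it when vehicle replicate 2 (0.064) or 3 (0.084), or mitochondria replicate 3 (0.060), was omitted. Fn1 (fibronectin), the most abundant by CPM, had 0.35 ± 0.11 (SE; edgeR adjusted p = 0.072), and Sparc, the most abundant by FPKM, -0.05 ± 0.06 (SE; 0.65).

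Of 7 tested genes that work with cathepsins S and L in antigen processing, 1 was higher. Their median of 0.40 was 0.12 with vehicle replicate 3 omitted and 0.21 with mitochondria replicate 3 omitted, and ran from 0.12 to 0.46 over the 19 alternatives. The higher gene was H2-Ab1, an MHC class II beta chain and the most abundant of the list. Its level was 118, 87.6 and 78.0 CPM with vehicle and 195, 151 and 161 CPM with mitochondria (log2 fold change 0.84 ± 0.16 SE, edgeR adjusted p = 0.015). It did not pass without vehicle replicate 2 (0.079) or 3 (0.074). The class II chains H2-Aa and H2-Eb1 were far lower, at 0 to 0.803 CPM and 0.36 to 2.09 CPM over all libraries. Why H2-Ab1 stood so far above them was not tested. Cd74, the invariant chain that cathepsin S cuts, was at 1.73 to 3.66 CPM in all libraries, about as low as Ctss itself.

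Of the 13 remaining mouse cathepsins listed, 4 were tested and 0 passed in edgeR, 0 of them at an unadjusted p under 0.05, with a median of -0.12. That median turned to 0.20 without mitochondria replicate 1 and 0.06 without mitochondria replicate 3, and ran from -0.38 to 0.20 over the 19 alternatives. The others were not analysed here. The most abundant was Ctso, at 2.39 FPKM in the vehicle group and 2.40 in the mitochondria group (log2 fold change 0.07 ± 0.14 SE, adjusted p = 0.78).

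**Figure D4:**
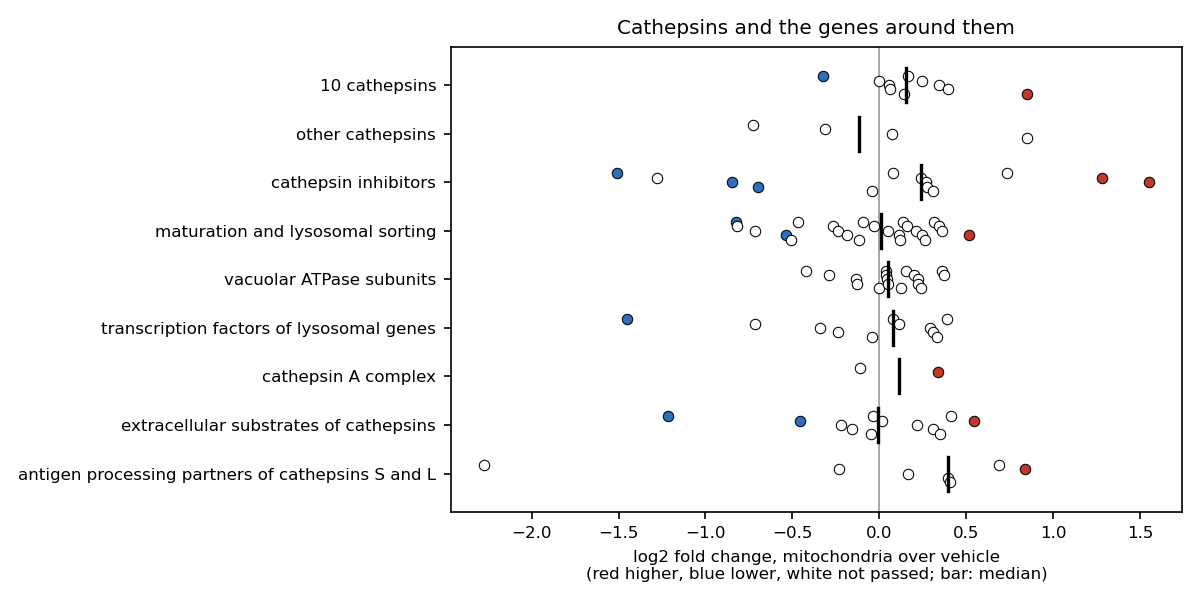
Log2 fold change of each tested gene (points; red higher, blue lower, white not passed in edgeR) for the 10 cathepsins and 8 lists of genes around them; the bar is the list's median. Medians lie between -0.12 and 0.40, and the white points, which did not pass, are the majority in every list except the cathepsin A complex, where 1 of 2 genes passed.

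**Figure D5:**
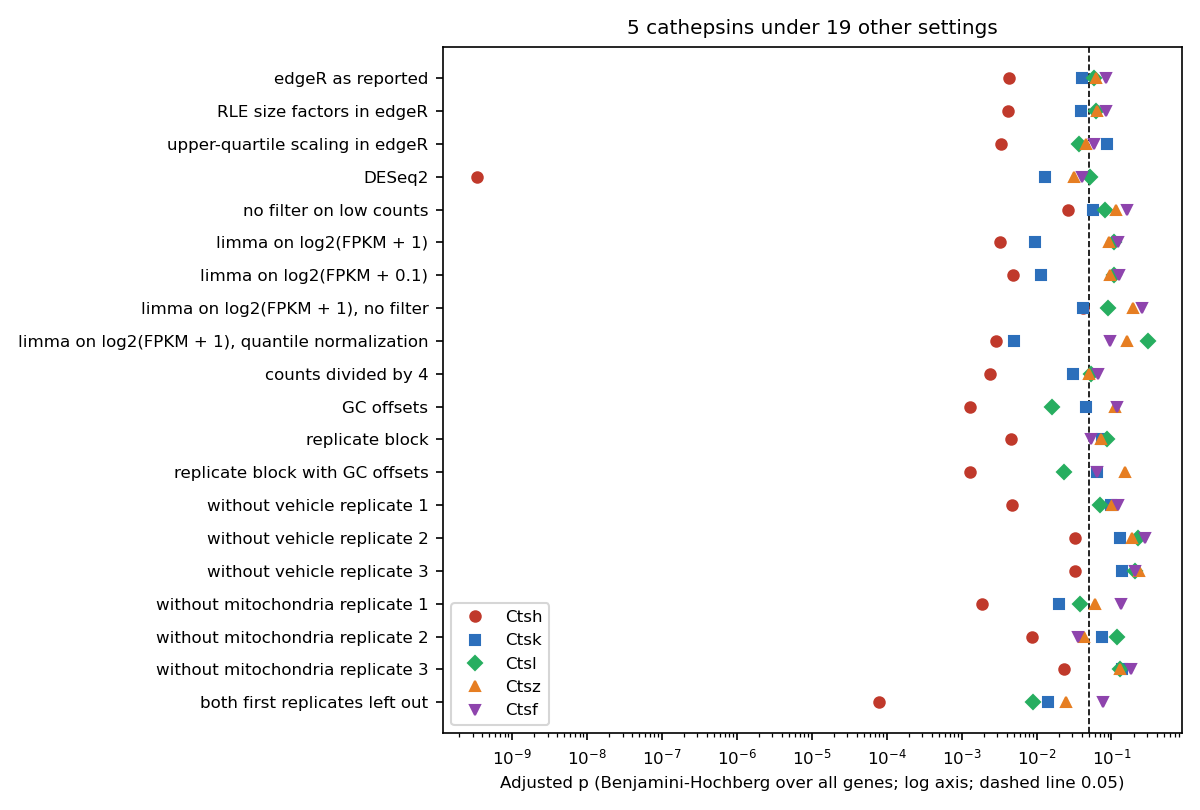
Adjusted p of the 5 cathepsins with an unadjusted p under 0.05, in edgeR as reported and in 19 other settings, on a log axis with the 0.05 threshold dashed. Ctsh stays left of the line in all 19, Ctsk in 10, Ctsl and Ctsz in 5 each and Ctsf in 2.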

How the data were processed

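Poly(A) RNA of 6 libraries was sequenced as paired ends, per the labels' protocols. The submitters' processing notes name HISAT2 2.0, StringTie 1.3.0, Bowtie 0.12.2 and mm8, with no roles. Of the 28812 genes deposited, 28732 are in GENCODE M21, and 90.2% of those start and end as they do there on GRCm38. Coordinates are therefore given on GRCm38. The authors deposited FPKM per gene, and estimated counts that are whole numbers and pile up at 4. Genes with a count of 4 were 2.31 to 2.84 times the mean number at 3 and 5. How the counts and FPKM were made, and whether strand was used, is not given in the sources used here. Counts thus seem inflated by about 4, so low genes look more precise than their fragments allow, and counts divided by 4 were tried.

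The counts were tested with edgeR 4.0.16 in R 4.3.3 (filterByExpr with a minimum count of 10, TMM scaling, quasi-likelihood, group only, two-sided), with Benjamini-Hochberg adjustment over all 17290 genes and a threshold of 0.05. SE was taken from the F statistic and the fold change, and 95% intervals use the moderated degrees of freedom. The 19 alternatives used DESeq2 1.42.0, limma 3.58.1 on log2(FPKM + 1) or log2(FPKM + 0.1), other scalings and filters, GC offsets, a replicate block and the leaving out of libraries. The fit was checked on simulated data. Counts divided by 4 differed between the libraries of a group by a chi-square of 4.78 to 30 per degree of freedom, so each library was counted as its own replicate.

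The cathepsins and the 8 lists around them were chosen with earlier results of these data known. Named were all 10 cathepsins, and from each list the genes that passed (when 5 or fewer did in a direction) and the most abundant. The coding stretch of Ctsf is not reported here. Protein sequences were not used here; the coding stretches and the sites of Ctsa, Ctsd and Ctss were chosen after the files were seen.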

Additional observations from a re-analysis of the deposited data

How the results depend on the processing

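Ctsh passed in all 19 alternatives. Deviations from the group means correlated at 0.0837, 0.0272 and 0.0237 between libraries of the same number. Between libraries of different numbers the correlations ran from -0.0684 to 0.0567. With 3 libraries per group, these values cannot show whether the replicate numbers pair the libraries. Ctsc and Ctss rest on few fragments. Leaving out replicate 1 of both groups was chosen after seeing the data. The cause of each shift was not tested. The largest shift of the median of all genes was 0.06 log2, with upper-quartile scaling, where 51.9% of calls were higher instead of 42.9%; the share was 29.1% without vehicle replicate 2 and 29.9% without vehicle replicate 3.

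All genes higher (1099) became 357 with no filter on low counts, 161 in limma with no filter, 1697 with GC offsets and 1849 with both replicates 1 left out; all genes lower (1463) became 507 with no filter on low counts and 301 in limma with no filter. Cathepsins higher (1) became 3 with upper-quartile scaling and in DESeq2, 2 with counts divided by 4, with GC offsets and with the replicate block with GC offsets, and 4 with both replicates 1 left out. Cathepsins lower (1) became 0 with upper-quartile scaling, no filter, the replicate block (Ctsk adjusted p = 0.076), and the replicate block with GC offsets (0.063). Of the inhibitors, limma with no filter called 1 higher and 1 lower.

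Of maturation and sorting genes, DESeq2 called 3 higher and 5 lower, no filter 0 lower, limma on log2(FPKM + 1) 5 lower, limma on log2(FPKM + 0.1) 4 lower, limma with no filter 0 higher and 0 lower, quantile normalization 6 lower, counts divided by 4 4 lower, GC offsets 2 higher, the replicate block 1 lower, the replicate block with GC offsets 3 higher, and both replicates 1 left out 4 higher and 7 lower. Of vacuolar ATPase subunits, DESeq2 and both replicates 1 left out called 1 higher, and DESeq2, both limma pseudocounts, quantile normalization, counts divided by 4, GC offsets with and without the replicate block, and both replicates 1 left out called 1 lower. Of transcription regulators, 1 was higher with upper-quartile scaling, DESeq2 and quantile normalization and 2 with both replicates 1 left out; 2 were lower with GC offsets and with the replicate block with GC offsets. Of the cathepsin A complex, 0 were higher with no filter, limma with no filter, the replicate block, and the replicate block with GC offsets. Of the substrates, 2 were higher with upper-quartile scaling and DESeq2, 5 with both replicates 1 left out and 0 with no filter and in limma with either pseudocount or no filter, and 1 was lower with no filter and in limma with no filter. Of the antigen processing genes, 2 were higher with upper-quartile scaling, DESeq2, limma on log2(FPKM + 1), counts divided by 4 and both replicates 1 left out, and 0 with no filter and in limma with no filter.

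The estimates of 4 cathepsins that did not pass changed sign. Ctsa had -0.0079 with quantile normalization, -0.019 with GC offsets and -0.012 with the replicate block with GC offsets. Ctsb had -0.012 in limma with either pseudocount and with no filter, -0.12 with quantile normalization, and -0.032 with GC offsets, with or without the replicate block. Ctsc had -0.0093 in limma with no filter and -0.13 without mitochondria replicate 2. Ctss had 0.056 with upper-quartile scaling, 0.13 with quantile normalization, 0.21 with GC offsets, 0.030 with the replicate block, 0.24 with the replicate block with GC offsets, 0.26 without vehicle replicate 3 and 0.072 without mitochondria replicate 3.

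Leaving out 1 library at a time gave 130 to 1086 genes higher and 310 to 1694 lower. Cathepsins higher ran from 1 to 3 and cathepsins lower from 0 to 1, with their median at 0.12 to 0.21. The estimate ran from -0.13 to 0.22 for Ctsc and from -0.14 to 0.26 for Ctss. Inhibitors ran from 1 to 2 higher and 2 to 4 lower, maturation and sorting genes from 0 to 1 higher and 0 to 6 lower, vacuolar ATPase subunits from 0 to 1 lower, transcription regulators from 0 to 1 higher, the cathepsin A complex from 0 to 1 higher, substrates from 0 to 1 higher and 1 to 3 lower, and antigen processing genes from 0 to 1 higher.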
